A study of Vitis amurensis with 6 samples.

Results

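Grapevine genes were examined that lie outside the 19 assembled chromosomes, on sequences whose names contain random or Un. The members were chosen by the first sequence name that the deposited table gives for each gene, which uses no measured value. Of the 16645 genes of the table, 1389 were members. On random sequences lay 299 genes and on the Un sequence 1090, and the other 15256 lay on chromosomes 1 to 19. The RNA came from the Amur grape, Vitis amurensis, grown as callus, which is undifferentiated tissue kept in culture. Petiole segments had been transformed, and the resulting callus was selected with kanamycin at 20 mg per litre and kept in the dark at 25 °C on B5 medium. Callus of both groups was put at 4 °C for 24 hours, 15 days after its last transfer to new medium. Each group had 3 libraries. The control group is named EV, with a genotype label that reads Envelope, and the other group overexpressed VaWRKY12, a transcription factor of the plant WRKY family. The design asks which genes change with VaWRKY12 in the cold. All callus had been cold-treated, transformed and kanamycin-selected, and the labels give neither the promoter nor the number of callus lines, nor say whether the 3 libraries were separate cultures. The p-values therefore rest on a spread between samples that may be technical. The genes carry identifiers only, so the tissue was not checked by markers and the level of VaWRKY12 itself was not checked.

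A genome assembly joins stretches of sequence into chromosomes by a genetic map. By convention, a random sequence collects stretches that were assigned to a chromosome but not placed in order on it, and an Un sequence collects stretches that were assigned to no chromosome. Such stretches often hold repeats, recent duplicates or second copies of a locus from the other parental chromosome, because these are hard to place. A read that matches several copies equally well cannot be given to 1 gene, and some counting programs divide it among the matches. Identifiers of the form used here belong to annotations of the wine grape Vitis vinifera, a relative of the species sequenced.

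Each library held between 8795632 and 14966502 reads, and 3 reads corresponded to 0.194 to 0.343 CPM (counts per 1e6 reads of the library). Members on random sequences took 1.18%, 1.18% and 1.15% of the reads in EV replicates 1, 2 and 3, and 1.18%, 1.16% and 1.12% in VaWRKY12 replicates 1, 2 and 3. Members on Un took 4.64%, 4.6% and 4.66% in EV and 4.61%, 4.58% and 4.51% in VaWRKY12. In both gene sets VaWRKY12 replicate 3 held the lowest share. Without the 3 most abundant members of each set, random sequences took 0.977% to 1% in EV and 0.991% to 1.02% in VaWRKY12. On this sum VaWRKY12 replicate 3 lay inside the range of EV. Un took 4.21% to 4.26% in EV and 4.12% to 4.26% in VaWRKY12, with VaWRKY12 replicate 3 still the lowest. Over Un members with whole counts only, the order turned, with 1.11% to 1.12% in EV and 1.13% to 1.14% in VaWRKY12. Random members with whole counts went the other way, with 0.464% to 0.48% in EV and 0.444% to 0.461% in VaWRKY12.

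The 13 random sequences were uneven. The sequences named 18_random, with 81 genes, 13_random, with 78, and 7_random, with 47, together held 206 of the 299 genes, and 10_random held 24. The remaining 9 held 2 to 17 genes each. The Un sequence spanned the largest set, with genes from position 27687 to 43114136 and 25.3 genes of the table per Mb. Chromosomes 1 to 19 held 26.4 to 48.5 per Mb. Between neighbouring genes the median gap was 9.59 kb on Un, 16.2 kb on 18_random and 13 kb on 13_random, against 5.1 to 9.1 kb on the chromosomes. On 7_random it was 5.67 kb, inside the chromosome range, and on 10_random 3.61 kb, below it. Neighbours on random sequences and on Un may come from stretches joined in arbitrary order. A gap, a distance or a run of neighbours there thus describes the file's coordinates only.

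Median levels were lower among members than among chromosome genes. Per length, the median over the 6 libraries was 13.7 RPKM (reads per kilobase of coding length and 1e6 reads) on random sequences and 16.4 on Un, against 23.7 on chromosomes 1 to 19. In CPM the medians were 15.7, 13.9 and 26.3. The middle 50% of genes ran from 4.78 to 46.5 CPM on random sequences, from 4.09 to 39.7 on Un and from 8.04 to 69.1 on chromosomes. When all genes were cut into 10 classes of equal size by mean level, 13.4% of random and 15.6% of Un members fell into the lowest class, with at most 2.3 CPM, beside 9.54% of chromosome genes. The highest class, from 146 CPM, held 4.35%, 5.96% and 10.4%. The table holds only genes that passed the submitters' filter on low values, so silent genes of either kind were not analysed here. No random member and 3 of 1090 Un members had 0 reads in at least 1 library, each in VaWRKY12 replicate 3.

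Because many properties move with level, the chromosome genes were given the class shares of each member set before properties were compared, which set their median to 15.9 CPM beside random sequences and 14.4 beside Un. These comparisons are descriptions with no test. Members had a median of 5 exons on random sequences and on Un, and chromosome genes at matched level had 5 as well. Genes with more than 10 exons made up 17.4% of random members, beside 17.6% of chromosome genes at their level. On Un the share was 12.5% (exact 95% interval 10.6 to 14.6), beside 17.3%. Coding length, the sum of exon lengths, had a median of 903 bases on Un, beside 1038, and of 1062 on random sequences, beside 1044. With classes of RPKM, the chromosome value beside random sequences was 1125, so the order turned. From the first to the last coding exon, a gene spanned a median of 5009 bases on random sequences, 3150 on Un, and 3957 and 3845 on chromosomes at the matched levels. An intron of 10 kb or more was carried by 11.4% of random members and 4.04% of Un members, beside 6.41% and 6.24%. Members on Un were thus shorter, and those on random sequences were more spread out, than chromosome genes of like level.

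The extremes show the breadth. GSVIVT01003800001 on 7_random, from position 242318 to 265940, had the longest coding length of the random members, 19377 bases in 6 exons. A single exon made up 17977 of these bases. The gene stood at 13.9, 13.8 and 11.9 CPM in EV and 12.9, 10.7 and 9.73 in VaWRKY12. GSVIVT01006263001 on Un had 38841 bases in 3 exons, with 38554 of them in a single exon. Its levels were 17.2, 12.5 and 13.8 CPM, then 16.6, 15.2 and 14.5. Neither gene differed between groups in edgeR's quasi-likelihood test (adjusted p = 0.394 and 0.769), and in both the libraries of the groups overlapped. Most exons had GSVIVT01006792001 on 10_random, with 28, and GSVIVT01003951001 on Un, with 33. The 28-exon gene ranged from 60.8 to 139 CPM within EV alone and from 67.6 to 115 in VaWRKY12 (adjusted p = 0.918).

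Counts that were not whole numbers were more frequent among members. Of 299 random members 152, or 50.8% (exact 95% interval 45 to 56.6, for counting error only), had such a count in at least 1 library. Of 1090 Un members 716 did, or 65.7% (62.8 to 68.5). Chromosome genes did so in 33.3% of cases at either matched level. The share in all 6 libraries was 10.7% and 12.5%, beside 3.4% and 3.51%. The sources used here do not say how the fractions arose. A gene that has them may share its reads with another gene model. Of the counts with a fraction, 38.7% on random sequences, 48.4% on Un and 56.8% on chromosomes ended in 0.5, within 0.0051.

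The distance between the gene sets was wide at low level and narrow at high level. In the lowest class 58.2% of Un members, 20 of 40 random members and 23.2% of chromosome genes had a fraction. In the highest class the shares were 80.0%, 84.6% and 72.3%. On Un the share lay between 55.5% and 80.0% in all 10 classes, while on chromosomes it rose from 22.7% to 72.3%. Random sequences differed among themselves. On 10_random 79.2% of genes had a fraction, on 13_random 60.3%, on 7_random 57.4% and on 18_random 42.0%. Of the shorter random sequences, 12_random had 3 of 16 genes with a fraction (18.8%) and 1_random 1 of 4, which is below every chromosome. The chromosomes that 3 of these are named for had 42.2% (chromosome 13), 37.8% (chromosome 7) and 33.3% (chromosome 18), and all 19 chromosomes lay between 33.2% and 43.7%.

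**Figure D1:**
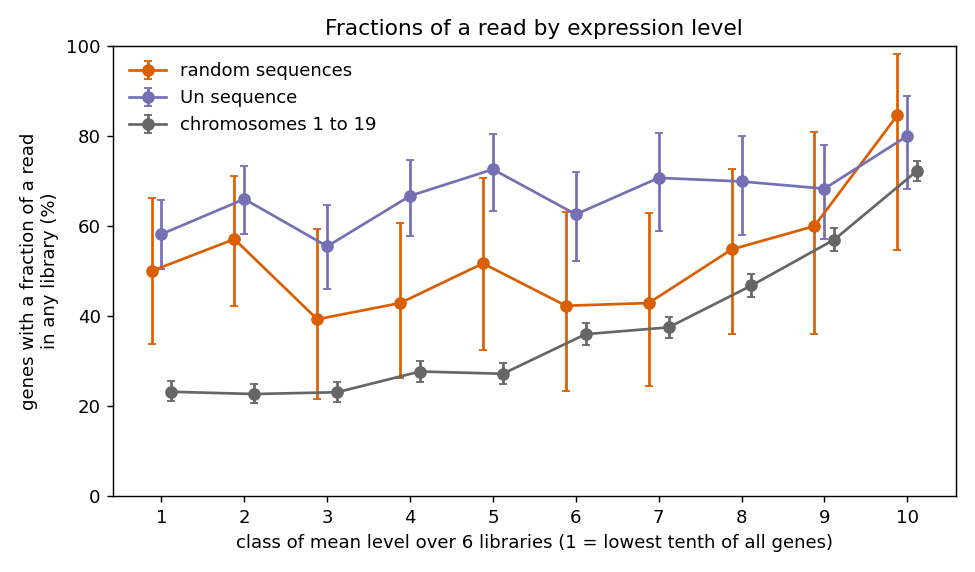
Share of genes, in percent, with a count that is not whole in any of the 6 libraries (vertical axis), by class of mean level from 1, the lowest, to 10 (horizontal axis). Points are random (orange), Un (violet) and chromosome genes (grey), with exact 95% binomial intervals. Un stays between 55.5% and 80.0%, while chromosomes go from 23.2% in the lowest class to 72.3% in the highest.

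Exon lengths were compared between genes because no sequence was used, and sharing them does not by itself mark copies. Among genes of at least 3 exons, 36.6% of the Un members shared 3 consecutive exon lengths with some other gene of the table, as did 30.8% of random members and 30.4% of chromosome genes at matched level. All exon lengths, in order, were equal to those of another gene for 45 of 909 Un members (4.95%) and 11 of 253 random members (4.35%), beside 3.32% and 3.23%. These 56 members fell into 37 sets. In 19 sets the members lay on Un and the partners on chromosomes, in 6 they lay on random sequences and chromosomes, and the other 12 held members only, 10 on Un and 2 on random sequences. Equal exon lengths do not show equal sequence, and no sequence was compared. The search for shared exon lengths was chosen after the values were seen.

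The 2 Un members highest per length had such partners. GSVIVT01002361001 and GSVIVT01002362001, neighbours on the minus strand of Un at 34388532 and 34390217 with 5 exons each, had the highest levels per length on Un, at 1376 and 2135 RPKM. Their exon lengths equal those of GSVIVT01026654001 and GSVIVT01026655001, which are neighbours on the plus strand of chromosome 4 at 20664463 and 20660030. GSVIVT01002362001 read 1068, 1144 and 1163 CPM in EV and 796, 990 and 1027 in VaWRKY12, and GSVIVT01002361001 read 549, 480 and 526, then 358, 423 and 463. In both genes every EV library lay above every VaWRKY12 library, and neither passed the test (adjusted p = 0.216 and 0.119). On chromosome 4, GSVIVT01026655001 averaged 314 CPM in EV and 268 in VaWRKY12, and GSVIVT01026654001 averaged 609 and 466, and they did not pass either (adjusted p = 0.212 and 0.183). Fractions stood in 5 or 6 libraries for all 4 genes.

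Other abundant members showed small differences. GSVIVT01006770001 on Un, the member with the most reads, stood at 2123 ± 103 CPM in EV and 1995 ± 170 in VaWRKY12 (SD, n = 3), with overlapping libraries and an adjusted p of 0.672 in edgeR. GSVIVT01002125001 on Un stood at 721 ± 43.5 and 781 ± 103 CPM. On random sequences the most abundant was GSVIVT01001863001 of 5_random, with 854, 865 and 720 CPM in EV and 682, 596 and 457 in VaWRKY12. The groups did not overlap, but the gene missed the threshold (adjusted p = 0.0816). It passed without VaWRKY12 replicate 1 (adjusted p = 0.049), with the replicate block (0.0261) and in DESeq2 (0.0211). GSVIVT01006778001 of 11_random went from 828, 658 and 638 CPM to 523, 516 and 430, a log2 fold change of -0.53 (SE 0.133, adjusted p = 0.0384). This call was lost whichever library was left out (adjusted p from 0.0616 without VaWRKY12 replicate 1 to 0.106 without EV replicate 1). GSVIVT01004820001 of 10_random stood at 329 ± 16.1 and 401 ± 32.2 CPM (adjusted p = 0.094). Per length, GSVIVT01000380001 of 17_random and GSVIVT01012391001 of 13_random led the random members, at 673 and 626 RPKM, and neither passed (adjusted p = 0.308 and 0.122).

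Between the groups, 25 of 291 tested random members were called at an adjusted p under 0.05, 12 higher and 13 lower with VaWRKY12, which is 8.59% (exact 95% interval 5.64 to 12.4). On Un 101 of 1056 were called, 44 higher and 57 lower, which is 9.56% (7.86 to 11.5). Over all 16317 tested genes 11.9% were called, 5.76% higher and 6.16% lower. Chromosome genes at the levels of random and Un members were called in 12.1% and 12% of cases. Median log2 fold changes were 0.04 on random sequences and 0.01 on Un, beside 0.01 over all tested genes. Libraries of the groups did not overlap for 89 random members (30.6%) and 290 Un members (27.5%), beside 32.1% of all tested genes. Changes of at least 1 on the log2 scale that passed were 8 higher and 8 lower on random sequences and 21 higher and 24 lower on Un, beside 2.82% higher and 2.57% lower over all genes. In bulk RNA, a change in the number of cells of a type and a change in RNA per cell cannot be told apart.

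These counts changed when single libraries were left out, and fewer samples enter each such fit. Of the called members, 14 of 25 on random sequences and 48 of 101 on Un stayed called without each library in turn. Without EV replicate 1, 2 or 3 the risen Un members numbered 19, 22 and 23, and without VaWRKY12 replicate 2 they numbered 23, against 44 with all. Chromosome genes lost calls in the same fits, from 12.2% with all libraries to 6.42%, 6.11%, 7.61% and 7.54%. The fallen Un members numbered 35 when EV replicate 2 was left out and 34 when VaWRKY12 replicate 2 was, against 57. Risen random members numbered 6 when EV replicate 1 was left out and 7 when VaWRKY12 replicate 2 was, against 12. Without VaWRKY12 replicate 3 the counts did not drop alike, with 112 Un and 24 random members and 12.1% of chromosome genes called. Without VaWRKY12 replicate 1 the calls were 79 on Un, 25 on random sequences and 8.08% of chromosome genes.

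The low share on Un lay in the genes of low level. In level classes 1 to 3, up to 9.99 CPM, 22 of 417 tested Un members were called (5.28%, exact 95% interval 3.34 to 7.88), beside 493 of 4140 chromosome genes (11.9%). In classes 4 to 10 the shares were 12.4% (79 of 639) and 12.2%. Among the low Un members, those with fractions were called in 7 of 253 cases (2.77%, 1.12 to 5.62) and those with whole counts in 15 of 164 (9.15%, 5.21 to 14.6). Low chromosome genes were called in 12.4% with fractions and 11.8% without. The spread within groups was alike in low Un members and low chromosome genes, with a median SD of 0.302 and 0.296 on the log2 scale, as was the median absolute log2 fold change, at 0.332 and 0.336. Among low genes with fractions, the median SD was 0.306 on Un and 0.307 on chromosomes, and the median absolute log2 fold change was 0.293 and 0.338. Libraries of the groups did not overlap for 19.4% and 28.6% of these genes. The median coding length in the low classes was 696 bases on Un and 891 on chromosomes. The part that length or divided reads have in the low share was not tested. Under 16 settings of the test, the one reported and 15 alternatives, the share called in the low classes was smaller on Un than on chromosomes in all 16, at 0.438 to 0.744 times the chromosome share. In classes 4 to 10 it was smaller in 4 of 16. The settings refit the same libraries, so their agreement is not independent evidence. With whole-count genes only, the low share was 9.15% on Un (5.21 to 14.6) and 12.3% on chromosomes. The division into low and higher classes was chosen after the values were seen, and the difference has no test. Random members were called in 9.17% of the low classes and 8.24% of the higher ones.

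**Figure D2:**
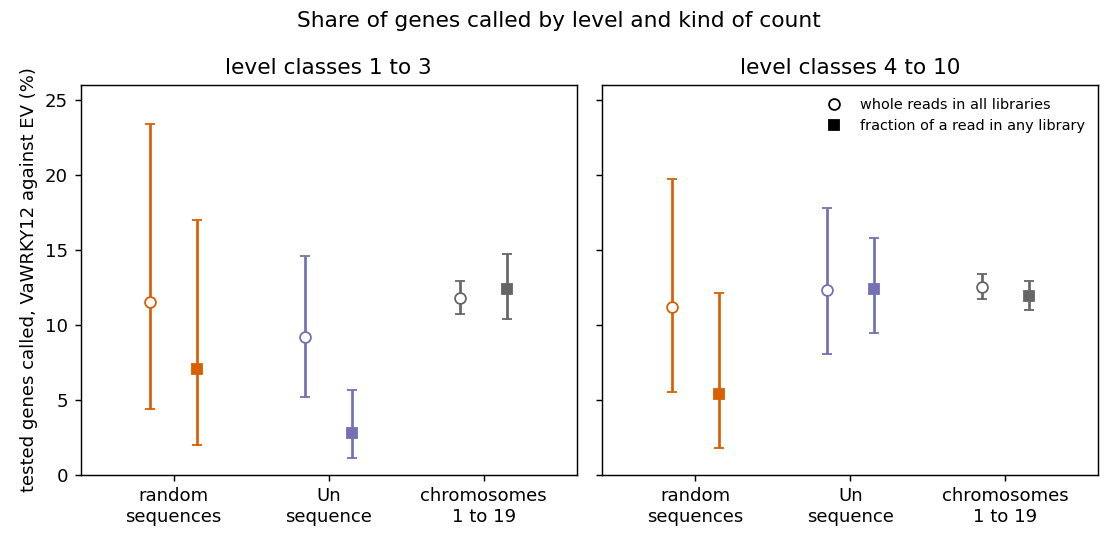
Share of tested genes called, in percent (vertical axis), for random, Un and chromosome genes, in level classes 1 to 3 (left) and 4 to 10 (right). Open circles are genes with whole counts in all libraries, filled squares are genes with a fraction in any, and bars are exact 95% binomial intervals. Low Un members with fractions stand at 2.77%, beside 12.4% of low chromosome genes with fractions.

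The largest rises on random sequences were on 18_random. This sequence carried 8 of the 12 risen random members, from 76 tested genes, and 2 that fell. Over all tested genes 5.76% were called higher and 6.16% lower. The sequence is described for its rises, so nothing is read from these counts. Of the 8, a group of 5 were neighbours between 2618234 and 2732180, and 4 of these, all on the minus strand, rose by 2.16 to 2.79 on the log2 scale. GSVIVT01013695001 rose from 3.16, 1.32 and 2.86 CPM in EV to 15.0, 16.7 and 13.3 in VaWRKY12, a log2 fold change of 2.63 (SE 0.285, adjusted p = 0.00235). GSVIVT01013687001 rose from 2.19, 0.707 and 2.17 CPM to 11, 12.5 and 11.7 (2.79, SE 0.325, adjusted p = 0.00276). In both genes all VaWRKY12 libraries lay above all EV libraries, and EV replicate 2 was the lowest of its group. GSVIVT01013694001 rose from 2.27, 0.942 and 2.51 CPM to 9.19, 8.37 and 7.71 (2.16, SE 0.321, adjusted p = 0.00549). GSVIVT01013689001 rose from 0.856, 0.942 and 1.14 CPM to 5.28, 7.53 and 5.18 (2.58, SE 0.286, adjusted p = 0.00247). All 4 stayed called without each library in turn. EV counts of GSVIVT01013689001 were 8.67, 10 and 10 reads, so the size of its rise rests on few reads.

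These 4 genes share a pattern of exons. Read in the direction of transcription, GSVIVT01013695001 has exons of 120, 152, 248, 132, 592, 353 and 203 bases, and GSVIVT01013689001 has 132, 152, 248, 132, 592, 353 and 185. GSVIVT01013694001 has 93, 152, 248, 132, 589, 353 and 203. GSVIVT01013687001 has other lengths at its start and ends with 132, 592, 353 and 185. No other gene of the table shares 3 consecutive exon lengths with GSVIVT01013695001. Counts of GSVIVT01013695001 and GSVIVT01013694001 were whole in all 6 libraries, and the other pair had fractions in 3 or 4 libraries. Genes of that other pair may share reads with each other or with further genes, so they may not be independent measurements. GSVIVT01012332001, on the plus strand of the same sequence at 261760, was the other large rise, from 1.48, 1.13 and 1.03 CPM to 8.54, 9.01 and 5.92 (2.68, SE 0.276, adjusted p = 0.00216), with whole counts. Its last 6 exons, of 152, 245, 126, 595, 362 and 185 bases, differ from the last 6 of GSVIVT01013689001 by 0, 3, 6, 3, 9 and 0 bases.

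The remaining neighbour, GSVIVT01013686001 on the plus strand, had another exon pattern and rose less, from 12.2, 11.6 and 12 CPM to 15.1, 18.7 and 18.3 (0.54, SE 0.137, adjusted p = 0.0403). Its call held only without VaWRKY12 replicate 1, and the adjusted p was 0.0746 to 0.126 without each of the other 5 libraries. Both genes that share exon lengths with it, on chromosomes 9 and 3, changed by -0.11 and -0.12 and were not called. None of the tested genes among the 6 on either side of the stretch was called. The other risen genes of 18_random were GSVIVT01036428001, from 1.97, 3.44 and 2.46 CPM to 5.5, 7.63 and 6.2 (1.28, SE 0.264, adjusted p = 0.0184), and GSVIVT01013661001, from 0.987, 0.471 and 1.03 to 1.81, 2.54 and 5.37 (1.93, adjusted p = 0.0479). The GSVIVT01036428001 call was lost without EV replicate 1, EV replicate 3 or VaWRKY12 replicate 2 (adjusted p = 0.0647, 0.0662 and 0.0657). The GSVIVT01013661001 call held only without VaWRKY12 replicate 1. At lower coordinates the neighbours GSVIVT01013666001 and GSVIVT01013668001 fell together, in sum from 95.5 ± 11.8 to 45.9 ± 6.07 CPM (SD, n = 3), and the call of GSVIVT01013668001 was lost without EV replicate 2 (adjusted p = 0.052).

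**Figure D3:**
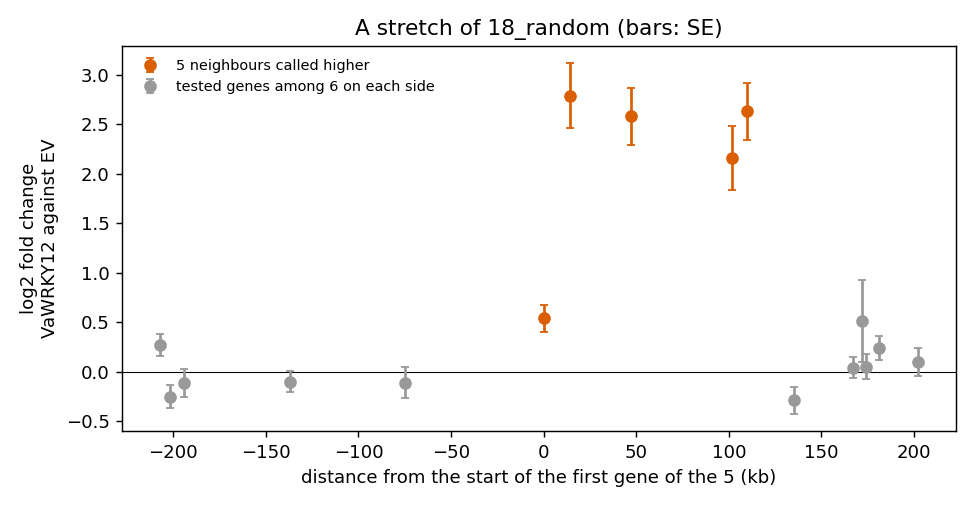
Log2 fold change of VaWRKY12 against EV (vertical axis, bars are SE) for tested genes of 18_random, by distance in kb from the start of GSVIVT01013686001 (horizontal axis). The 5 neighbours called higher are orange and the tested genes among the 6 on each side are grey. The 4 genes from 14.4 to 110 kb stand between 2.16 and 2.79, and no grey gene was called.

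The falls on random sequences were spread over more sequences. GSVIVT01001534001, a gene of 12 exons on 7_random at 1103970, fell furthest, from 9.67, 12.2 and 4.92 CPM in EV to 0.259, 0.848 and 0.335 in VaWRKY12. The log2 fold change was -4.27 (SE 0.506, adjusted p = 0.00292), and no VaWRKY12 library came near EV. The fall was 19.3-fold with all libraries and 29.8-fold without VaWRKY12 replicate 2. VaWRKY12 replicates 1, 2 and 3 held 4, 8 and 3 reads of this gene, so these sizes rest on few reads. On 4_random the neighbours GSVIVT01007191001 and GSVIVT01007192001, with 3 exons each on the plus strand, both fell by 2.01 on the log2 scale (adjusted p = 0.00376 and 0.0041). Their models run from 52928 to 55919 and from 55929 to 56656. Whether both belong to 1 transcript was not tested, so they may not be independent measurements. GSVIVT01007192001 went from 134, 136 and 122 CPM to 41.5, 37.8 and 17.3, and GSVIVT01007191001 from 69.2, 84.4 and 72.1 to 22.0, 23.2 and 10.2. VaWRKY12 replicate 3 was the lowest library for both.

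On 17_random, GSVIVT01000391001 fell from 22.8, 15.8 and 15.7 CPM to 4.14, 6.25 and 3.91 (-1.93, SE 0.24, adjusted p = 0.00318). On 13_random, GSVIVT01012449001 fell from 21.3, 24.0 and 17.5 CPM to 5.89, 7.74 and 6.71 (-1.64, SE 0.176, adjusted p = 0.00232), and its neighbour GSVIVT01012447001 fell by 0.77 on the log2 scale (adjusted p = 0.013). GSVIVT01013493001, a gene of 17 exons on the same sequence, went from 20.0, 39.4 and 28.0 CPM to 4.79, 7.74 and 13.3 (-1.79, SE 0.374, adjusted p = 0.0191). Its libraries scattered more in both groups, and the call was lost without EV replicate 2, EV replicate 3 or VaWRKY12 replicate 2 (adjusted p = 0.0631, 0.0522 and 0.0647). The other calls on random sequences were falls of GSVIVT01002204001 (10_random, -1.38), GSVIVT01012511001 (3_random, -0.96) and GSVIVT01003805001 (7_random, -0.64), and rises of GSVIVT01007389001 (1.11), GSVIVT01007388001 (0.80) and GSVIVT01003808001 (0.53) on 7_random and of GSVIVT01001575001 on 9_random (0.93). Among these, the falls of GSVIVT01002204001 and GSVIVT01012511001 stayed called without each library in turn, and the other 5 genes were lost without at least 1.

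Falls on Un were ranked over called genes whose groups did not overlap and whose higher group averaged 50 reads or more. The largest was that of GSVIVT01005841001, a gene of 9 exons at 22189764. It went from 96.1, 163 and 80.8 CPM in EV to 8.22, 18.8 and 8.27 in VaWRKY12, a log2 fold change of -3.29 (SE 0.381, adjusted p = 0.00276). GSVIVT01003492001, of 12 exons at 10724070, went from 39.7, 55.3 and 39.8 CPM to 6.54, 8.27 and 3.8 (-2.85, SE 0.257, adjusted p = 0.00161). In both genes EV replicate 2 was the highest library and the groups lay far apart. GSVIVT01007052001 fell from 16.4, 26.2 and 22.6 CPM to 8.74, 7.69 and 4.86 (-1.59, adjusted p = 0.00633), and GSVIVT01006023001 from 23.0, 18.2 and 13.3 to 4.08, 7.95 and 3.91 (-1.79, adjusted p = 0.00987). GSVIVT01006154001 fell from 17.8, 14.0 and 9.6 CPM to 5.63, 4.45 and 1.01 (-1.84, adjusted p = 0.039). That call was lost when any 1 EV library or VaWRKY12 replicate 2 was left out (adjusted p 0.0597 to 0.126).

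Rises on Un were ranked by the same rule, in which the 50 reads apply to VaWRKY12 and EV counts have no minimum. The 6 largest started from at most 6.22 CPM in EV, and some of them rest on few EV reads. Of all 44 risen Un members, 12 lay in the 3 lowest level classes and 32 above them. GSVIVT01005057001, of 4 exons at 17750045, rose from 1.28, 0.565 and 0.572 CPM to 7.42, 8.06 and 7.27, a log2 fold change of 3.21 (SE 0.32, adjusted p = 0.002). GSVIVT01002632001, of 3 exons at 35515749, rose from 3.06, 2.45 and 1.6 CPM to 12.3, 13.8 and 15.5 (2.53, SE 0.24, adjusted p = 0.00178). In both genes the VaWRKY12 libraries lay close together, far above EV, and the call stayed without each library. EV counts of GSVIVT01005057001 were 13, 6 and 5 reads, so the size of its rise rests on few reads. GSVIVT01006043001 rose from 1.58, 4.33 and 1.83 CPM to 14.4, 11.3 and 11.3 (2.24, adjusted p = 0.00633), a 4.73-fold rise that became 7.28-fold without EV replicate 2.

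The other large rises on Un had unequal libraries. GSVIVT01006231001, with 162 coding bases, went from 0.296, 1.32 and 0.343 CPM to 9.45, 7.74 and 2.57 (3.29, SE 0.642, adjusted p = 0.0153), and the 9.81-fold rise became 20.4-fold without EV replicate 2. EV replicates 1, 2 and 3 held 3, 14 and 3 reads of this gene, so these sizes rest on few reads. Its call was lost without EV replicate 1 or EV replicate 3 (adjusted p = 0.0624 and 0.0578). GSVIVT01002271001, a gene of 1 exon, went from 0.592, 0.848 and 0.686 CPM to 5.24, 6.47 and 1.23 (2.6, adjusted p = 0.0287). Its EV counts were 6, 9 and 6 reads. GSVIVT01006484001, of 13 exons, went from 3.75, 6.22 and 2.51 CPM to 35.0, 15.7 and 6.26 (2.20, adjusted p = 0.0494), so that VaWRKY12 replicate 3 nearly met EV replicate 2. Its 4.59-fold rise became 2.62-fold without VaWRKY12 replicate 1. For GSVIVT01002271001 and GSVIVT01006484001 the call held only without VaWRKY12 replicate 3, with adjusted p of 0.0773 to 0.102 and 0.0799 to 0.151 without the other libraries. VaWRKY12 replicate 3 was the lowest of its group for all 3 genes.

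**Figure D4:**
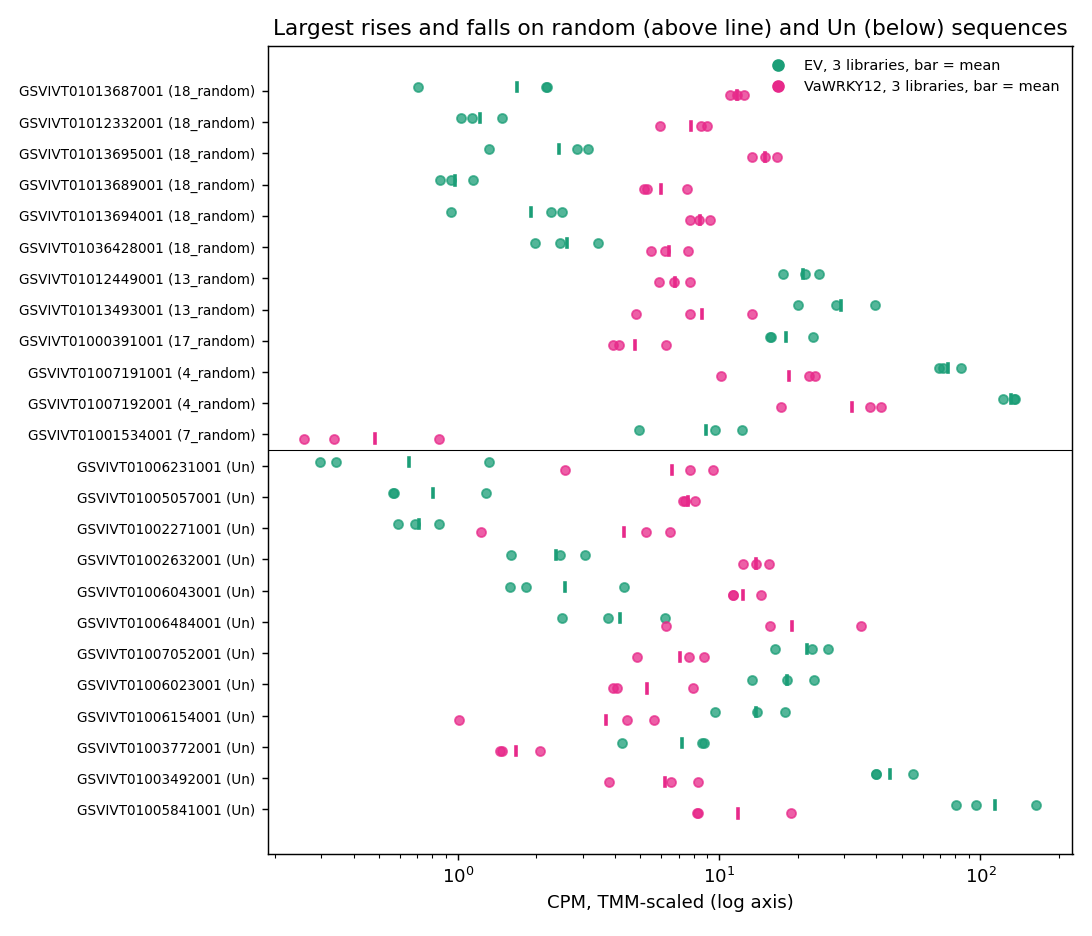
CPM of every library on a log axis (horizontal) for the 12 largest changes on random sequences (above the line) and the 12 on Un (below), from called genes whose groups did not overlap and whose higher group averaged 50 reads or more. Green points are EV, pink points are VaWRKY12 and bars are group means of 3 libraries. All 6 rises on random sequences are on 18_random.

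Runs of at least 3 tested neighbours called in the same direction numbered 1 on random sequences, described above, and 3 on Un, all of which fell. Both runs near 28 and 29 Mb of Un belong to a group of genes with a common exon pattern. Exons of 325, 141, 132, 213, 225 and 348 bases follow each other in GSVIVT01006763001, GSVIVT01007039001 and others. In the whole table, 10 genes share 3 consecutive exon lengths with GSVIVT01006763001. Of the 11 genes in all, 9 lay on Un in a pair of stretches, all on the minus strand, and the other 2, GSVIVT01014703001 and GSVIVT01014705001, lay on chromosome 19. All 9 on Un had fractions in all 6 libraries and the chromosome 19 genes had none.

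In the stretch at 28226132 on Un, 3 of 5 genes of the group were called lower. GSVIVT01006761001 went from 25.7, 38.1 and 27.9 CPM in EV to 12.2, 13.1 and 7.79 in VaWRKY12 (-1.46, SE 0.224, adjusted p = 0.0061). GSVIVT01006763001 went from 21.2, 17.1 and 18.6 CPM to 11.5, 10.1 and 6.34 (-1.01, SE 0.216, adjusted p = 0.0208). GSVIVT01006764001 went from 16.8, 34.9 and 21.1 CPM to 9.23, 10.6 and 5.11 (-1.53, SE 0.328, adjusted p = 0.0211). In each the groups stood apart and VaWRKY12 replicate 3 was the lowest library. The sum of the 3 was 73.8 ± 14.3 CPM in EV and 28.6 ± 8.16 in VaWRKY12 (SD, n = 3). On either side of them GSVIVT01006760001 had a log2 fold change of 0.31 and GSVIVT01006766001 of -0.64, and neither was called. In GSVIVT01006766001 every VaWRKY12 library still lay below every EV library. GSVIVT01006761001 stayed called without each library, while GSVIVT01006763001 was lost without EV replicate 1, EV replicate 3 or VaWRKY12 replicate 2 (adjusted p = 0.0761, 0.0618 and 0.0566). GSVIVT01006764001 was lost without EV replicate 2 or VaWRKY12 replicate 1 (adjusted p = 0.0613 and 0.0521).

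In the stretch at 29822117 the order was alike. GSVIVT01007038001, the gene at its start, had a log2 fold change of 0.18 and was not called. GSVIVT01007039001 went from 71.5, 63.1 and 63.2 CPM to 44.4, 36.6 and 19.5 (-0.96, SE 0.252, adjusted p = 0.0436), and GSVIVT01007042001 from 4.75, 8.34 and 5.88 to 3.0, 3.23 and 1.52 (-1.28, SE 0.327, adjusted p = 0.0411). Between them lies GSVIVT01007041001, a model of 177 coding bases whose 2 exons are too few to share 3 exon lengths with any gene. It fell from 3.09, 2.72 and 3.95 CPM to 0.976, 1.01 and 0.587 (-1.88, SE 0.333, adjusted p = 0.0108). This model ends at 29841749, and GSVIVT01007042001 starts at 29841760 on the same strand. Whether both belong to 1 gene was not tested, so they may not be independent measurements. Only this short model stayed called without each library. GSVIVT01007039001 was lost when any 1 EV library or VaWRKY12 replicate 2 was left out (adjusted p 0.0941 to 0.127), and GSVIVT01007042001 was lost whichever library was left out (adjusted p 0.0569 to 0.147). GSVIVT01007043001, with a log2 fold change of -0.65, and the chromosome 19 genes, at 0.27 and -0.71, were not called. In GSVIVT01007043001 every VaWRKY12 library still lay below every EV library. Of the 11 genes 5 were thus called lower, where 6.16% of all tested genes were. The group was found through runs chosen for being called lower, and the 5 are members of those runs, so nothing is read from this count. Since 9 of them may share reads with each other, they are not independent measurements.

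**Figure D5:**
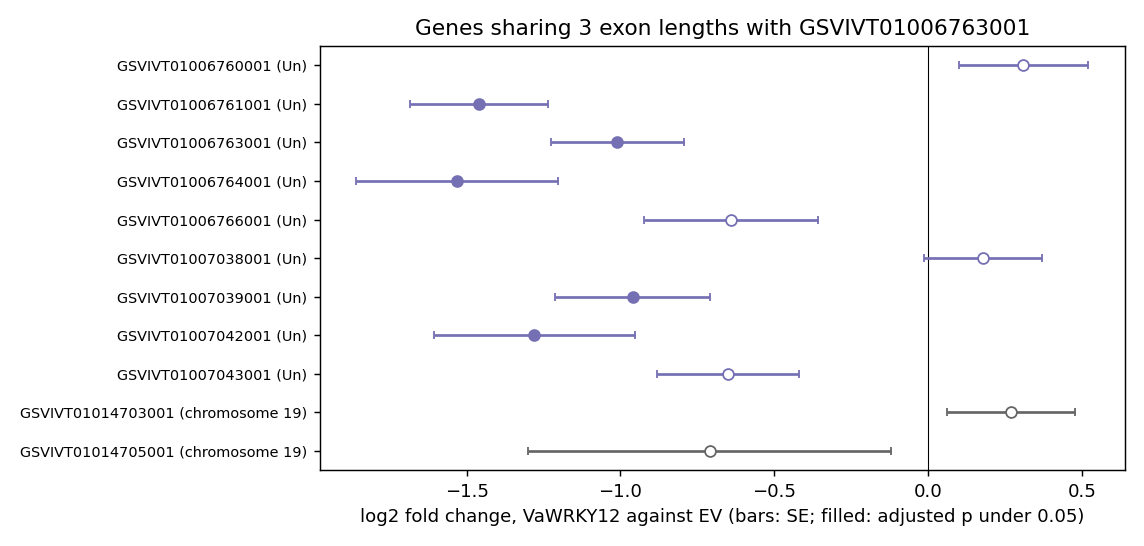
Log2 fold change of VaWRKY12 against EV (horizontal axis, bars are SE) for the 11 genes that include GSVIVT01006763001 and share 3 consecutive exon lengths with it, in order of position. Filled points passed an adjusted p under 0.05, violet marks Un and grey marks chromosome 19. The gene at the start of each Un stretch stands at 0.31 and 0.18, and the 5 called genes stand between -1.53 and -0.96.

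The remaining run lies on Un from 20415278 to 20435982. GSVIVT01005305001 fell from 218, 305 and 239 CPM to 141, 127 and 106 (-1.03, SE 0.152, adjusted p = 0.00535), and GSVIVT01005303001 from 45.3, 47.6 and 45.2 to 26, 32.0 and 27.7 (-0.69, SE 0.106, adjusted p = 0.00609). They have 4 exons each, of 20 or 23, 94, 263 and 232 bases, and stayed called without each library. GSVIVT01005278001, elsewhere on Un at 20153371, has the same exon lengths as GSVIVT01005303001 and fell by 0.64 on the log2 scale (adjusted p = 0.00445). GSVIVT01014540001 on chromosome 19 has these lengths too, with whole counts, and changed by -0.15 (adjusted p = 0.317). The 3 Un genes had fractions in all 6 libraries. Beside the pair lies GSVIVT01005301001 on the plus strand, where EV counts were 16.17, 26.83 and 11.67 reads and VaWRKY12 counts 8.17, 2 and 0 (log2 fold change -2.65, SE 0.642, adjusted p = 0.0343). Its call was lost when any 1 EV library or VaWRKY12 replicate 2 was left out (adjusted p 0.0666 to 0.12), and its 6.26-fold fall became 15.2-fold without VaWRKY12 replicate 1.

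Genes with equal exon lengths did not always have equal values. GSVIVT01005191001 on Un, of 7 exons, averaged 113 CPM in EV and 115 in VaWRKY12 (adjusted p = 0.884), while GSVIVT01008745001 on chromosome 18 rose from 27.9 to 50.6 CPM (0.86, adjusted p = 0.00496). The Un gene had fractions in 3 libraries and the chromosome 18 gene in none. GSVIVT01003772001 on Un, with whole counts, fell from 8.78, 8.57 and 4.23 CPM to 2.07, 1.48 and 1.45 (-2.08, adjusted p = 0.00772). Its partner on chromosome 3, GSVIVT01031890001, also with whole counts, averaged 244 CPM in EV and 145 in VaWRKY12 (-0.74, adjusted p = 0.00346). These differences between partners were not tested.

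In a set of 3 with 8 exons and whole counts, the Un genes GSVIVT01007278001 and GSVIVT01006926001 had log2 fold changes of 1.14 and 0.97 (adjusted p = 0.04 and 0.0533). Their partner GSVIVT01036973001 on chromosome 3 had 1.24 (adjusted p = 0.0204). The GSVIVT01007278001 and GSVIVT01036973001 calls were lost without EV replicate 1 (adjusted p = 0.126 and 0.0799), among others. On Un, GSVIVT01006303001 and GSVIVT01006462001, of 5 exons and with fractions in 4 libraries each, fell by 0.73 and 0.59 on the log2 scale (adjusted p = 0.0102 and 0.0241). The GSVIVT01006462001 call was lost without EV replicate 2, VaWRKY12 replicate 1 or VaWRKY12 replicate 2 (adjusted p = 0.0707, 0.0713 and 0.0837). Of 5 Un genes with another shared pattern of 5 exons and fractions in all libraries, GSVIVT01002105001 fell by 0.66 and GSVIVT01004508001 by 0.55 on the log2 scale (adjusted p = 0.00521 and 0.00697), and the other 3 were not called. The longest patterns that a member shared in full with another gene, of 13 exons in GSVIVT01004774001 on Un and GSVIVT01001274001 on chromosome 2 and of 11 in GSVIVT01002202001 on 10_random and GSVIVT01014709001 on chromosome 19, showed no called change.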

How the data were processed

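RNA sequencing of 6 libraries was analysed, 3 EV and 3 VaWRKY12, grouped by their titles. Per the submitters' processing notes the tools included Trimmomatic, HISAT2 2.0.5 and edgeR, with no roles stated. The counter, genome build and annotation were not given in the sources used here. The deposited table, per the file headers, gives Reads for each gene and library, used here as an estimated count (expected count) that the authors had not normalised, beside sequence name, exon coordinates and length. Coordinates follow the file. Reads were rounded to whole numbers, passed through filterByExpr (minimum count 10) and scaled by TMM. VaWRKY12 was tested against EV with edgeR 4.0.16 in R 4.3.3 (glmQLFit and glmQLFTest, two-sided, no covariate, all 6 libraries). Called genes had an adjusted p under 0.05 (Benjamini-Hochberg over 16317 tested genes), and SE was derived from the F statistic. RPKM was computed from reads and length. A count was whole within 1e-06, and spread is the SD of log2(CPM + 0.5). Code was tested on simulated data.

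Members and lists were chosen with earlier results of these data known. The named genes were, on random sequences and Un apart, the 6 largest rises and 6 largest falls of called genes whose groups did not overlap and whose higher group averaged 50 reads or more, the 3 highest by CPM and 2 by RPKM, those with most exons and the longest coding length, and runs of at least 3 called neighbours. Genes with equal exon lengths, pairs of neighbours and the other called random members were chosen after their values were seen. Gene lists and tissue markers had been planned but need gene names, so they were not used. Gene sequences were not used here. No source states whether counting used strand, and reads of antisense overlaps cannot be told apart. Intervals are exact binomial at 95% and, like floors, cover counting error only. The alternatives were other scaling, filters and rounding, DESeq2 1.42.0, whole-count genes, a replicate block, each library left out, and other level classes.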

Additional observations from a re-analysis of the deposited data

How the results depend on the processing

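With all libraries 56 members rose and 70 fell (940 and 1005 of all genes). Among whole-count genes, which are fewer, 30 members rose and 29 fell, 7 random members rose, 23 Un members rose and 19 fell, and 589 of all genes fell. Requiring a log2 change of at least 1 left 29 and 32 members, 8 fallen random members, 21 risen and 24 fallen Un members, and 460 and 419 of all genes. Leaving out each library gave 25 to 57 risen and 44 to 79 fallen members, 6 to 13 and 9 to 12 on random sequences, 19 to 45 and 34 to 67 on Un, and 457 to 975 and 524 to 1005 of all genes. The random median log2 fold change was -0.005 to 0.05 and the Un median 0.003 to 0.019 in these fits. Fewer samples enter them, and the cause of these shifts was not tested.

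Without matching, chromosome genes stood at 26.3 CPM beside both sets, at 37.7% with fractions and 6 exons beside Un, and at 1092 bases beside random sequences. With RPKM classes they stood at 17.9 CPM, 6 exons and 1122 bases beside Un and at 1125 bases beside random sequences. Both lengths beside random sequences turn the order against the members' 1062 bases. DESeq2 called 68 and 87 members. With the replicate block 61 members rose and 81 fell, and of the named calls only GSVIVT01013686001 was lost (adjusted p = 0.0591). Deviations of same-numbered libraries correlated at -0.063, 0.325 and 0.175 across genes, and those of differently numbered ones at -0.349 to 0.211. Whether the numbers pair the samples cannot be told from these values. Over the named genes and these settings, 63 calls were lost and 6 gained. Depth limits the genes near 3 reads, and 3 libraries a group limit all calls.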
